A study of Drosophila melanogaster with 4 samples.

Results

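The unplaced sequence U of the Drosophila melanogaster genome was examined for histone H3 dimethylated at lysine 9 (H3K9me2). U is an artificial join of scaffolds that could not be placed on a chromosome, so a position on it locates a stretch within the joined sequence and says nothing of where that stretch lies in the nucleus. It is 10.0 Mb long in FlyBase Release 5, or 7.19% of the 13 sequences analysed. The regions described are all those on U that the authors listed as enriched. Replicate 1 held 928 of them, out of 6264 on all sequences. Replicate 2 held 1205 of 10907, and the authors' combined list for the replicate set held 784 of 10762. Regions classed as depleted were left out by rule, and U held 0 of them in each of the 3 lists.

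The samples were nuclei from heads of adult flies of the wild-type Oregon-R strain, mixed adults raised in population cages, and all samples shared this strain, genotype and stage. Chromatin fixed with formaldehyde was sonicated and precipitated with an antibody to H3K9me2 in 2 ChIP libraries, and 2 input libraries served as controls for the region lists. The labels leave it unsaid whether the libraries stem from different cages or populations, so the spread between them may be technical. A head holds many cell types, and fewer cells carrying a mark and less of the mark per cell cannot be told apart in bulk chromatin.

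H3K9me2 is a mark of constitutive heterochromatin, the compact and repeat-rich chromatin around centromeres and on the Y chromosome. In flies it is laid down by methyltransferases such as Su(var)3-9, eggless and G9a, and it is bound by the heterochromatin protein HP1a. Sequence left unplaced in a genome assembly is mostly of this repeat-rich kind, since transposon remnants and satellite repeats make scaffolds hard to order.

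Each region carries a score given by the authors without a stated unit, and the scores themselves showed their scale. Relative to the commonest score of the list, the scores of 68.6% of U regions in replicate 1 and 85.1% in replicate 2 were base-2 logarithms of a ratio of whole numbers, with denominators up to 200 and a relative tolerance of 1e-08. Over all sequences the shares were 47.5% and 69.0%, so the scale was not visible in every score. Read as natural logarithms on U, 0% and 0.33% were, and read as base-10 logarithms, 5.82% and 6.14%. The score was therefore taken as a log2 ratio, which for the remaining scores is an assumption. The labels name each input as the control of a list, but the scaling constant behind the ratio is not given in the sources used here. Scores were compared within a list, and across lists only by rank.

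U was marked over most of its length in both replicates. Enriched regions covered 75.2% of U in replicate 1 and 62.1% in replicate 2, and the mean was 68.7% ± 9.27 (SD, n = 2). The covered length was 7.56 Mb in replicate 1 and 6.24 Mb in replicate 2. Over all sequences the order was the other way, with 32.4 Mb in replicate 1 and 41.1 Mb in replicate 2. The 5 large arms had that order too, with 17.1 and 28.4 Mb. The 6 scaffolds of mapped heterochromatin had the order of U, with 7.15 and 6.06 Mb, as had chromosome 4, with 0.661 and 0.403 Mb. U therefore held 23.3% of all enriched length in replicate 1, which was 3.24 times its share of the sequence, and 15.2% in replicate 2, which was 2.11 times that share.

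This coverage was close to that of the 6 scaffolds of mapped heterochromatin, and far above that of the 5 large arms. The scaffolds together were covered over 77.1% in replicate 1, a difference (U minus scaffolds) of -1.82 percentage points, and over 65.3% in replicate 2, a difference of -3.12 points. The mean of the within-replicate differences was -2.47 points ± 0.92 (SD, n = 2; exact two-sided sign-flip permutation p = 0.5, the smallest that 2 replicates allow). The sign of this small difference turned to 1.37 points in the combined list and to 1.26 points with gaps up to 5 kb joined, so an order of U and the scaffolds was not established. Against single scaffolds, U was covered less than 3LHet, with differences of -8.22 and -8.05 points, and less than 3RHet, with -6.36 and -7.84 points. It was covered more than 2LHet by 11.9 and 12.1 points, more than XHet by 9.31 and 2.57 points, more than 2RHet by 4.03 and 1.51 points and more than YHet by 1.54 and 3.96 points. Each of these 6 directions was the same in both replicates. The excess of U over the large arms was 60.9 points in replicate 1 and 38.2 points in replicate 2, and averaged 49.6 ± 16.0 (SD, n = 2; exact two-sided sign-flip permutation p = 0.5, the smallest possible).

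**Figure D1:**
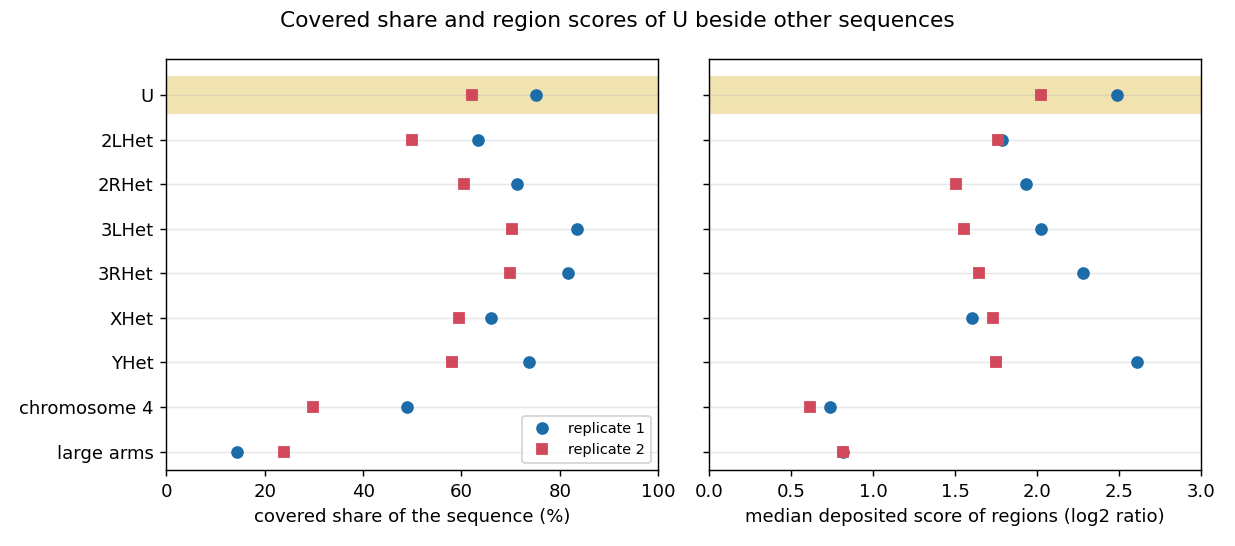
Share of each sequence inside enriched regions (left, in percent) and median deposited score of its regions (right, a log2 ratio whose scaling constant can differ between lists), with 1 point per replicate. U, shaded, sits among the Het scaffolds in covered share (75.2% and 62.1%) and has a median score of 2.49 in replicate 1 and 2.03 in replicate 2, above the Het scaffolds except YHet in replicate 1.

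The scores of U stood apart more than its coverage did. The median score of U regions was 2.49 in replicate 1, against 2.03 on the Het scaffolds and 0.82 on the large arms. In replicate 2 the medians were 2.03 on U, 1.56 on the scaffolds and 0.81 on the arms. U exceeded the scaffolds by 0.46 on the log2 scale in each replicate, which is a 1.37-fold higher ratio in replicate 1 and 1.38-fold in replicate 2. The mean difference of 0.46 had an SD of 0.0039 over the replicates (n = 2; exact two-sided sign-flip permutation p = 0.5, the smallest possible). That SD was 0.074 with the better-scoring 50% of each list and 0.084 at equal covered length. Against single scaffolds the replicates were as close for 3LHet, with differences of 0.47 and 0.47. They were further apart for XHet, with 0.89 and 0.30, and for 2LHet, with 0.71 and 0.27. The only scaffold with a higher median than U in either replicate was YHet in replicate 1, with 2.61, whereas in replicate 2 YHet had 1.75. Over the large arms the excess of U was 1.67 on the log2 scale in replicate 1 and 1.21 in replicate 2.

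U supplied most of the best-scoring regions of each replicate. In replicate 1, 501 of the 928 U regions, or 54.0%, were in the top 10% of scores of the list, against 10% of all regions by construction. In replicate 2, 653 of 1205, or 54.2%, were in the top 10%. The corresponding shares were 18.5% and 28.3% on the Het scaffolds and 0.72% and 1.98% on the large arms. Of the 100 best-scoring regions, 88 in replicate 1 and 77 in replicate 2 lay on U, with 8 and 10 on the Het scaffolds. In the combined list 51 of the top 100 lay on U, and 38 on the large arms and chromosome 4. Nearly the whole marked length of U was above a score of 1, with 99.7% in replicate 1 and 96.9% in replicate 2. At a score of 2 or more the parts separated further. This class held 91.1% of the marked length of U and 64.8% of that of the Het scaffolds in replicate 1, and 60.3% and 37.0% in replicate 2.

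Regions on U were shorter at the median than those of the 6 pooled Het scaffolds. In replicate 1 their median length was 5058.5 bp (interquartile range 2809 to 9299 bp), against 7681 bp on the scaffolds. In replicate 2 the medians were closer, 3758 bp and 3907 bp. Single scaffolds lay on both sides of U. The medians of 2LHet (3527 and 3652 bp) and XHet (3108 and 3106 bp) were below those of U in both replicates, and those of the other 4 scaffolds were above, from 7333.5 bp on 2RHet to 11345.5 bp on 3RHet in replicate 1 and from 3760 bp on YHet to 4152 bp on 3LHet in replicate 2. The shortest region on U was 1306 bp in replicate 1 and 1305 bp in replicate 2, and the longest were 77.2 kb and 47.0 kb. Regions of at least 10 kb numbered 214 in replicate 1, which is 23.1% of the U regions, against 10.2% over all sequences and 42.2% on the scaffolds. In replicate 2 they numbered 118, or 9.79%, against 5.4% over all sequences and 19.6% on the scaffolds. These long regions held 58.1% of the marked length of U in replicate 1 and 30.5% in replicate 2. The ends of the joined scaffolds were not analysed here, so whether they bear on the length of regions was not tested.

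On U the score of a region rose less with its length than on the large arms. In replicate 1 regions under 3 kb had a median score of 2.35, those from 3 to 10 kb 2.52 and those of 10 kb or more 2.49. In replicate 2 the medians were 1.75, 2.18 and 2.23. On the large arms the same classes rose from 0.73 to 1.49 in replicate 1 and from 0.68 to 1.57 in replicate 2. Across regions, Spearman's rho of length and score was 0.11 on U, 0.20 on the Het scaffolds and 0.75 on the large arms in replicate 1, and 0.32, 0.56 and 0.78 in replicate 2. These coefficients describe regions of 1 library each, whose lengths and scores come from the same reads. The spread of scores on U narrowed with length, with an SD of 0.70 under 3 kb and 0.37 from 10 kb in replicate 1, and 0.85 and 0.61 in replicate 2. Scores that were repeated within the list, when compared to 9 decimals, occurred in 25.9% of U regions in replicate 1 and 31.9% in replicate 2. These shares were not computed for other sequences, so they do not set U apart. The regions with a repeated score had median lengths of 2445 and 2112 bp, against 6559.5 and 4657 bp for the others.

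**Figure D2:**
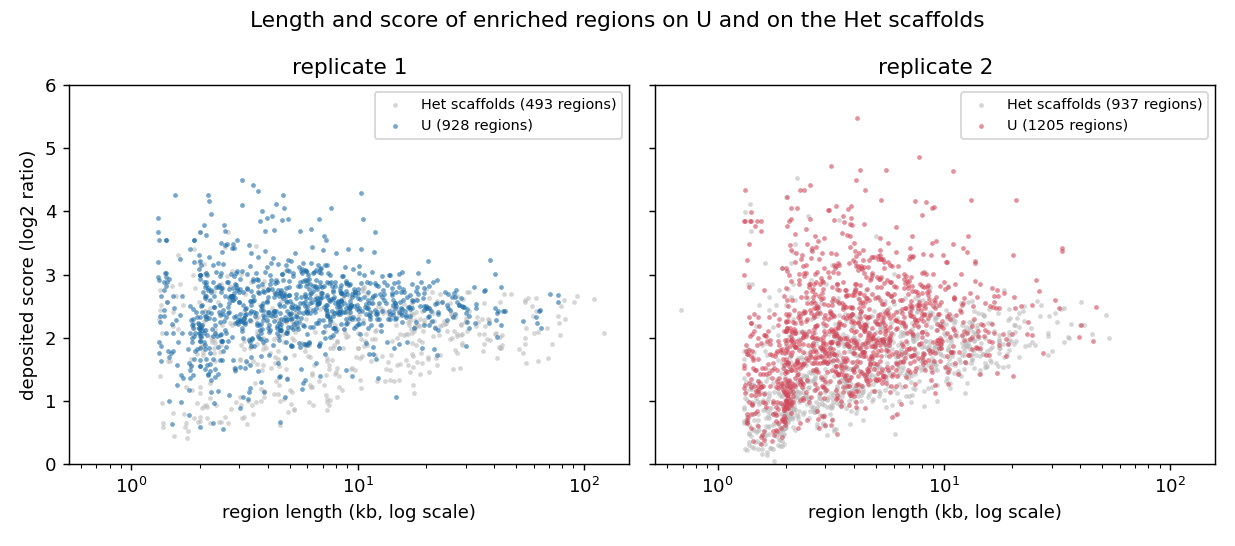
Length (kb, log scale) and deposited score (log2 ratio) of each enriched region on U (coloured) and on the 6 Het scaffolds (grey), in replicate 1 (left) and replicate 2 (right). The median score of regions under 3 kb on U is 2.35 in replicate 1 and 1.75 in replicate 2, and the score changes little with length in replicate 1 (rho 0.11) and somewhat more in replicate 2 (rho 0.32).

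The replicates marked largely the same parts of U. They shared 5.91 Mb, which is 58.8% of U. This was 78.1% of what replicate 1 marked on U and 94.6% of what replicate 2 marked. A further 1.65 Mb (16.5% of U) was listed in replicate 1 only and 0.336 Mb (3.34%) in replicate 2 only, and 2.15 Mb (21.4%) in neither. The Jaccard index (length in both lists divided by length in either) was 74.8% on U, 80.0% on the Het scaffolds and 52.1% on the large arms. Such overlap values rise with the share covered, and the arms were covered over only 14.3% in replicate 1 and 23.9% in replicate 2. An index adjusted for coverage was not computed, so these values do not rank the agreement on U and on the arms. Of the U regions of replicate 1, 829 (89.3%) were touched by replicate 2 by at least 1 bp, against 93.6% of all its regions. Of those of replicate 2, 1188 (98.6%) were touched by replicate 1, against 60.9% over all sequences. The first share was thus below the background and the second far above it. Where a sequence is mostly marked, an overlap of 1 bp is easily met. With at least 50% of the region required, the shares on U were 79.3% and 95.9%, against 89.8% and 55.7% over all sequences.

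Some of the regions of replicate 1 were divided into several regions in replicate 2. Of the 928 regions of replicate 1, 180 touched 2 regions of replicate 2 and 103 touched 3 or more, up to 10. In the other direction, 1066 of the 1205 regions of replicate 2 touched a single region of replicate 1, and 12 touched 3 or more. Such counts were not made for other sequences, so the division is not shown to be particular to U. The Het scaffolds held 493 regions in replicate 1 and 937 in replicate 2. The length listed in replicate 1 only lay mostly beside shared sequence. Of it, 51.1% was at the edges of regions that replicate 2 also touched, 33.1% was between pieces of replicate 2 inside such a region, and 15.8% was in the 99 regions that replicate 2 did not touch. Inside the 214 regions of at least 10 kb in replicate 1, replicate 2 covered 60.4% of the outermost 0.5 kb, 71.7% of the next 0.5 kb, 79.0% from 1 to 2 kb, and 86.0% beyond 5 kb from an edge. Replicate 1 covered 89.6% of the outermost 0.5 kb of the 118 such regions in replicate 2, and 97.9% beyond 5 kb.

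Regions found in a single replicate were short. The 99 regions of replicate 1 that replicate 2 did not touch had median values of 2201 bp in length and 2.17 in score, against 5760 bp and 2.51 for the touched ones. The 17 regions of replicate 2 that replicate 1 did not touch had a median length of 1712 bp against 3821 bp, and a median score of 2.37 against 2.02. Over the 829 touched regions of replicate 1, Spearman's rho with the scores of replicate 2 was 0.58, as a description across regions of 1 pair of libraries. Of the 207 regions in the highest score quartile of replicate 1, 124 were also in the highest quartile of replicate 2 and 8 in the lowest. Of the 208 in the lowest quartile of replicate 1, 99 were also in the lowest of replicate 2 and 20 in the highest.

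**Figure D3:**
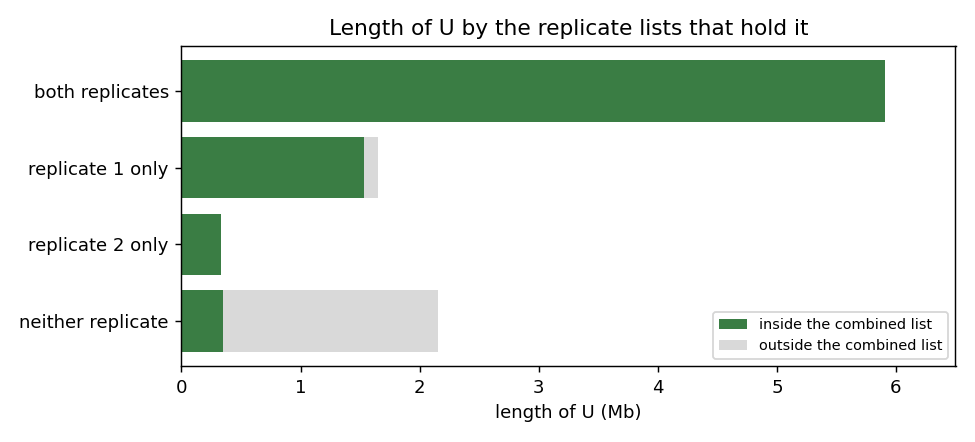
Length of U in Mb by the replicate lists that hold it, split into the part inside the authors' combined list (green) and outside it (grey). The shared 5.91 Mb is wholly inside the combined list, as is 92.6% of the length of replicate 1 only, 99.5% of that of replicate 2 only and 16.1% of the length in neither.

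The shared marking of U formed 857 stretches once gaps up to 1 kb were joined, with a median length of 4856 bp. Stretches of at least 10 kb numbered 183 and held 53.1% of the shared length. The longest was 67.3 kb, at 563837–631158. In replicate 1 it lay inside 1 region, which scored 2.57. In replicate 2 it was made up of 5 regions, whose mean score was 2.16. Both scores were at about the same rank among U regions, at the 57.4th and 57.3rd percentile. The next were 43.6 kb at 6634374–6678016, 43.4 kb at 1936285–1979707 and 42.4 kb at 5673534–5715903. The fifth was 40.7 kb at 373348–414011. It was the only one of the 5 that lay within a single region in each of the 3 lists. The highest score among the 5 was that of 5673534–5715903, at the 76.6th percentile in replicate 1 and the 82.7th in replicate 2. That of 1936285–1979707 was the lowest, at the 29.4th and 41.7th. None of the 5 was in the top 10% of U scores in either replicate.

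The best-scoring regions were shorter than most U regions in replicate 1, and less clearly so in replicate 2. The 50 best-scoring U regions of replicate 1 had a median length of 3191 bp, against 5058.5 bp for all its U regions. For replicate 2 these medians were 3308.5 and 3758 bp. The 3 highest in replicate 1 were 3.08 kb at 3099899–3102973 with a score of 4.50, 3.45 kb at 3817096–3820543 with 4.42, and 3.64 kb at 6613358–6616993 with 4.32. Replicate 2 covered from 99.9% to 100% of each, with scores between the 92.2nd and the 95.5th percentile of U regions there. The ranks of the 3 highest in replicate 2 differed more between the lists. The highest was 4.13 kb at 7734209–7738333, with a score of 5.47. In replicate 1 a pair of regions covered 71.2% of it, with a weighted mean score at the 93.3rd percentile, and the region of the combined list over it had a score at the 3.95th percentile. The second was 7.78 kb at 6861930–6869704, with a score of 4.85, and ranked high in the other lists as well, at the 94.1st percentile in replicate 1 and the 97.7th in the combined list. The last was 3.18 kb at 341839–345022, with a score of 4.72, and ranked at the 31.7th and 17.7th percentile there. Of the 50 best-scoring U regions, 43 of replicate 1 (86%) and 46 of replicate 2 (92%) were touched by the other replicate, against 89.3% and 98.6% of all U regions and 93.6% and 60.9% of the regions on all sequences. For these best-scoring regions the median share of their length covered was 98.99% and 83.2%.

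Most unmarked stretches of U were short, but those of at least 5 kb held most of the unmarked length. The longest stood far above the rest. Of the 809 stretches free of enriched regions in both replicates, 344 (42.5%) were under 1 kb and the median was 1295 bp. The 161 stretches of at least 5 kb held 58.6% of the unmarked length. The longest was 121 kb, at 695750–816881, and made up 5.63% of the unmarked length. It was as long in each list taken alone, with 121 kb free in either replicate and 120 kb in the combined list. The next on U was 22.2 kb, at 1108672–1130901, followed by 20.6 kb at 2159193–2179756, 17.1 kb at 5288597–5305655 and 13.8 kb at 430362–444188. The combined list held 3.19% of the second of these, 19.3% of the next, 0% of the 17.1-kb stretch and 0.094% of the last. Only 10 stretches on U reached 10 kb, against 30 on the Het scaffolds, where the longest were 114 kb and 109 kb. Stretches of at least 5 kb were more frequent on U, with 16.0 per Mb against 8.51 per Mb, at nearly equal unmarked shares of 21.4% and 20.95%. Their frequency was uneven along U, since 81 of the 161 lay within 1.5 Mb, described below. Whether an unmarked stretch holds undetermined bases or repeats to which reads could not be assigned was not tested, since the bases of U and the reads were not used here.

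**Figure D4:**
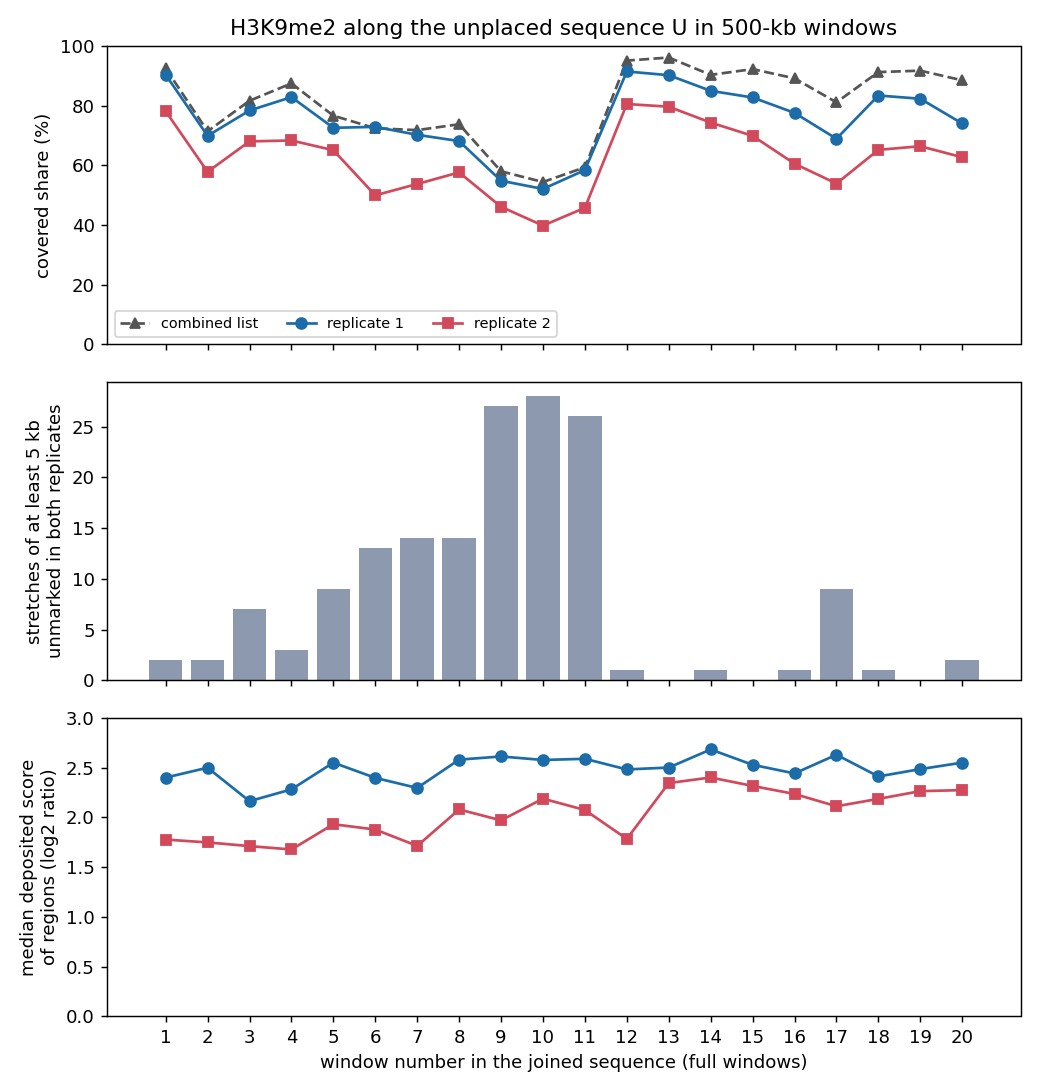
Covered share (top, in percent), number of stretches of at least 5 kb that are unmarked in both replicates (middle) and median deposited score of regions (bottom, log2 ratio) in the 20 full 500-kb windows of the joined sequence U. Windows 9 to 11 have the lowest covered shares in each list and hold 26 to 28 long unmarked stretches each, and the median scores of their regions together are 2.59 and 2.03, against 2.49 and 2.03 over the whole of U.

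Marking was uneven along the joined sequence, in the same way in both replicates. Over the 20 full windows of 500 kb the covered share ran from 52.1% to 91.4% in replicate 1 (median 75.8%) and from 39.8% to 80.5% in replicate 2 (median 63.9%). Window 10 was the lowest and window 12 the highest in each. Replicate 1 was higher in 20 of 20 windows, by 7.51 points in window 5 up to 23.0 points in window 6. This order of the replicates was not particular to U. The pooled Het scaffolds were covered over 77.1% in replicate 1 and 65.3% in replicate 2, and chromosome 4 over 48.9% and 29.8%. The large arms had the other order, with 14.3% and 23.9%, as had all sequences together. Across windows Pearson's r of the replicates was 0.95 and Spearman's rho 0.94, as a description of a single pair of libraries.

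A stretch of low coverage spanned windows 9 to 11, which were set apart after the values were seen. Of these 1.5 Mb together, replicate 1 covered 55.1%, replicate 2 43.9% and the combined list 57.2%. They held 81 of the 161 unmarked stretches of at least 5 kb, and the median unmarked stretch there was 6309.5 bp. The regions that were marked in these windows had median scores of 2.59 in replicate 1 and 2.03 in replicate 2, level with the medians of 2.49 and 2.03 over the whole of U. Directly next to them, windows 12 to 14 were covered over 88.9% and 78.2%, with 2 long unmarked stretches. Regions were longer in the first windows of the joined sequence than in the last. The median in replicate 1 was 9180 bp in windows 1 to 5 and 3995 bp in windows 15 to 20, and in replicate 2 it was 4616 and 3220 bp. The median score moved the other way in replicate 2, from 1.76 in windows 1 to 5 to 2.22 in windows 15 to 20, and in replicate 1 it was 2.39 and 2.50. How the scaffolds were ordered in the join is not given in the sources used here.

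The longest stretches found in only 1 replicate were of modest length. In replicate 1 they were 17.6 kb at 3412788–3430431, 12.1 kb at 2574053–2586107 and 8.50 kb at 2617154–2625650. The longest and the shortest of these lay in regions with low scores, at the 8.41st and 10.2nd percentile of U regions, and the other was at the 53.9th. In replicate 2 they were 6.32 kb at 1574304–1580627, 5.85 kb at 6835556–6841404 and 5.05 kb at 8831379–8836432, in regions at the 82.5th, 79.5th and 59.8th percentile. The combined list covered the 3 stretches of replicate 2 in full, and 100%, 99.4% and 73.4% of those of replicate 1.

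The combined list marked more of U than either replicate, 80.8%, which is also more than the 78.6% in the union of both. It was above both replicates in 19 of the 20 windows. Its 784 regions had a median length of 6307 bp and a longest region of 109 kb, at 6019278–6128264, which spanned 2 regions of replicate 1 and 12 of replicate 2. Of the length of U in neither replicate, it held 346 kb, or 16.1%, against 9.74% on the Het scaffolds and 2.94% on the large arms. That share was 7.06% in windows 1 to 10 and 30.1% in windows 11 to 20. A total of 37 of its 784 U regions (4.72%) touched neither replicate, and this share was not computed over all sequences. Of the length of the combined list on U, 4.26% lay outside both replicates. That share was 2.57% on the Het scaffolds and 8.41% on the large arms. The median length of the 37 regions, 1159 bp, was below the shortest U region of replicate 1 (1306 bp) and of replicate 2 (1305 bp). The combined list held U regions down to 1001 bp. Whether this unlike shortest length is why these regions touched neither replicate was not tested. Their median score of 2.41 was above the 2.06 of the other regions in that list. The longest of them were 3.23 kb at 8210038–8213268, 3.19 kb at 7759224–7762412 and 3.09 kb at 10028870–10031956, with scores of 2.41, 2.90 and 2.66.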

How the data were processed

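The files held 3 lists of regions from H3K9me2 ChIP-seq, 1 per ChIP library and 1 for the replicate set, on FlyBase Release 5 per the file headers. Per the submitters' processing notes, the aligner was Bowtie 0.12.7. Not given in the sources used here are the caller of the regions and its threshold, the treatment of reads that map to several places, and how the replicate set was made from the libraries. The deposited score of each region is the authors' own and was read as a log2 ratio from its values. The lists hold no read counts, so depth is unknown and no value has a counting interval.

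Regions were read as 1-based positions, and 1 end in the combined list was set to the length of U. Covered shares, overlaps (at least 1 bp) and stretches were computed per base with Python 3.11.15 and numpy 2.4.6, and correlations with scipy 1.17.1. These steps were tested on simulated lists and recovered 5 of 5 known quantities. The score given for a stretch is the mean over its regions, weighted by overlapping length. U was compared with other sequences within a replicate, by exact permutation of the signs of the within-replicate differences (two-sided), which with 2 replicates cannot give p below 0.5.

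Regions are named by rule: the 5 longest shared and the 5 longest unmarked stretches, the 3 longest found in each replicate only, the 3 highest scores of each replicate, and the 3 longest regions of the combined list that touch neither replicate. The longest region of the combined list was added after its values were seen. The sequence, the rules and the tests were chosen with earlier results of these data known. Alternatives covered the regions kept, joining of gaps, the list used, the overlap required and each replicate left out. The bases of U were not used here, and so no sequence is shown.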

Additional observations from a re-analysis of the deposited data

How the results depend on the processing

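Of 54 values recomputed under the alternatives, 3 moved beyond the spread allowed (0.1 for rho) and 2 reversed. The other 49 kept their direction and, for values without a test, stayed within that spread. Some of the 49 could hardly have moved. No U region of either replicate was under 1305 bp, so keeping only regions of at least 1 kb left the covered share of U at 68.7%. With 1 replicate left out, a value is that of the other replicate alone. The count of 49 is therefore not a measure of robustness. The covered share of U, 68.7%, was 81.8% with gaps up to 5 kb joined and 80.8% with the combined list in place of the replicates. The Jaccard index, 74.8%, was 87.6% with gaps up to 5 kb joined. Joining adds covered length by construction, and the combined list exceeded both replicates. The difference in covered share from the Het scaffolds, -2.47 points, reversed to 1.26 points with gaps up to 5 kb joined and to 1.37 points with the combined list. The cause of the second reversal was not tested. With its direction kept, this difference shrank to -0.89 points with the better-scoring 50% of each list and to -1.55 points at equal covered length. The difference between the replicates in the covered share of U, 13.1 points, was 8.16 points with gaps up to 5 kb joined. With either replicate left out, values ran from 62.1% to 75.2% for the covered share of U, from -3.12 to -1.82 points against the Het scaffolds, from 38.2 to 60.9 points against the large arms and from 0.457 to 0.463 for the difference in median score from the Het scaffolds. With the better-scoring 50% of each list, 99.2% of the U regions of replicate 1 and 95.2% of those of replicate 2 were kept, and the covered share was 68.0%. No paired analysis was possible because ChIP and input, the groups that share replicate numbers, were not compared here, and the comparisons of U with other sequences were already made within each replicate. Unknown depth limits each comparison of covered length between the replicates.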
